A study of Mus musculus with 12 samples.

Results

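Potassium channel genes were followed over heart and cerebrum of mice given phosphatidylserine (PS), a membrane phospholipid, or medium-chain triglycerides (MCT), the control oil. They were taken as every row of the deposited value table with 1 gene symbol that begins with Kcn, followed by a family letter or letters and a number. This gave 88 rows for 86 genes, of 21218 rows with 1 symbol and 35556 rows in all. Kcnd3 and Kcnh8 had 2 rows each, and every row was kept. Both rows that list Kcnmb4 together with its antisense gene have several symbols and are not among the 88.

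Potassium channels let potassium leave a cell and so return its membrane to rest after an action potential. Voltage-gated channels open on depolarization, with pore subunits of the Kv, Kcnq and Kcnh families, silent modifier subunits that join Kv2 pores, and accessory subunits that set gating and surface number. Calcium-activated channels tie firing to calcium entry, inward rectifiers hold the resting potential, and 2-pore channels carry background leak. In heart these currents end each beat, and in brain they set how often and how regularly neurons fire.

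There were 4 groups of 3 Affymetrix whole-transcript arrays, called biological replicates in the labels: heart PS, heart MCT, cerebrum PS and cerebrum MCT. Every array carries the strain label C57BL/6J and the genotype label humanized knock-in IKBKAP FDloxP/+, so the MCT mice have it too; FD is familial dysautonomia, a hereditary loss of autonomic and sensory neurons. Mice were 4 months old at the start and were gavaged every other day for 3 months, with 200 mg/kg PS or with MCT, in 100 µl. The labels conflict: the design text has 6 FD mice, the growth protocol has 3 FD and 3 wild-type mice, and the source names give 200 mg per day. The number of arrays limits the precision of every comparison, and the labels do not say that heart and cerebrum of 1 number came from 1 mouse.

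Values are log2 intensities, 1 per transcript cluster and array, so a difference of 1 is a doubling. A row's level is not compared with another row's, because probes differ in brightness. The tissues matched their labels: the 7 measured heart muscle genes averaged 12.07 to 12.28 in heart arrays and 5.47 to 5.66 in cerebrum arrays, and the 8 neuronal genes averaged 5.0 to 5.36 in heart and 10.79 to 10.98 in cerebrum. Sex-linked transcripts went with treatment. Xist, expressed from the inactive X chromosome, was 8.92 to 9.13 in the heart PS arrays and 3.40 to 4.03 in the heart MCT arrays. In cerebrum it was 9.55, 3.32 and 9.86 in PS 1, 2 and 3, and 3.34 to 3.77 in the MCT arrays. In heart, PS and sex pattern therefore cannot be told apart, and in cerebrum only PS 2 shares the pattern of the MCT arrays. Heart PS 2 and cerebrum PS 2 have opposite patterns, so by these values their shared number does not mark 1 mouse.

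The channel genes separated the tissues, mostly towards cerebrum. In limma, with p adjusted over all 21218 rows and a threshold of 0.05, 18 of the 88 rows were higher and 56 lower in heart than in cerebrum in PS mice (84.1%), against 56.5% of all rows. In MCT mice 19 were higher and 53 lower in heart (81.8%), against 62.2% of all rows. By direction, 30.6% of all rows were higher and 25.9% lower in heart in PS mice, and 34.4% and 27.8% in MCT mice. The median difference of the 88 rows was −1.38 in PS mice and −1.24 in MCT mice, beside 0.07 and 0.14 over all rows. The treatments share no arrays, and in them 17 rows were higher and 51 lower in heart both times, with 0 of opposite sign. Of the 51, 23 differed by 3 or more in both treatments, and all 51 were at or above the 40th percentile of the cerebrum arrays (5.04), while 31 were below that of the heart arrays. Of the 17, 11 were below the percentile of the cerebrum arrays, Kcnj5, Kcnq1 and Kcne1 among them. The lower level of those 31 and those 11 lies near background, so the size of their difference is approximate. In whole tissue, fewer cells of a type and less RNA per cell cannot be told apart.

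**Figure D1:**
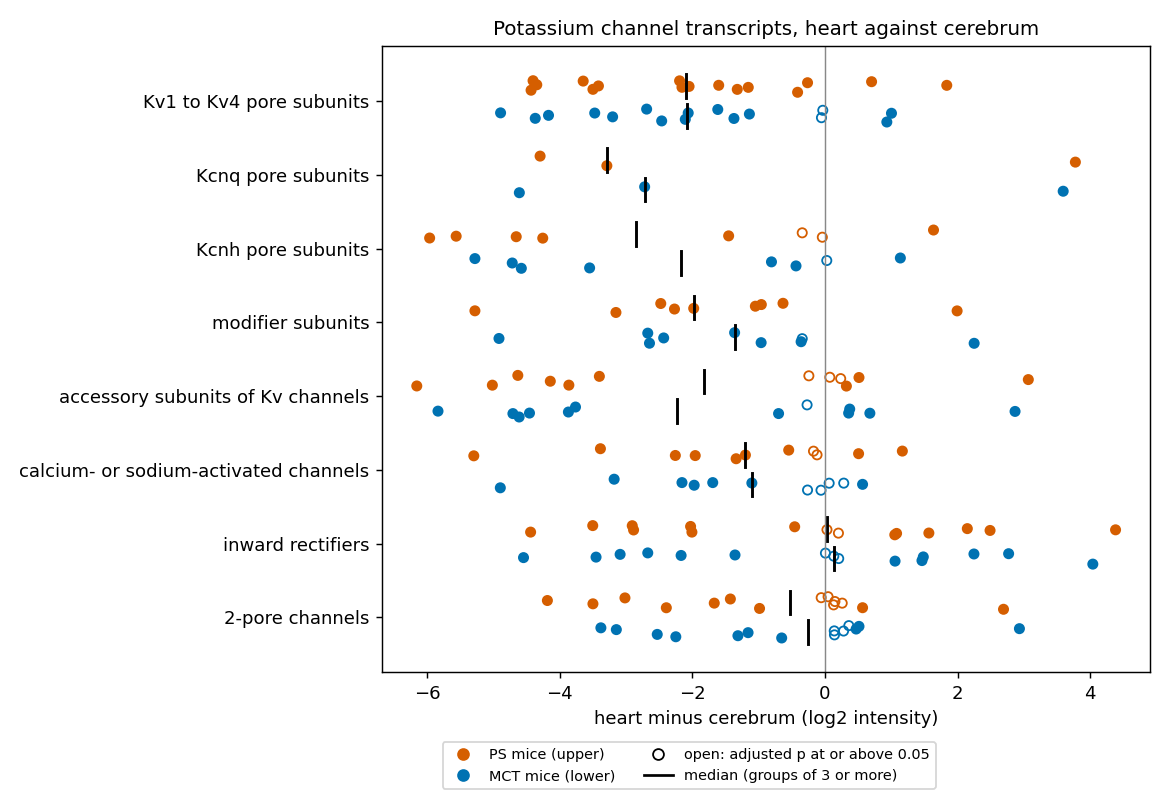
Heart minus cerebrum on the log2 scale (horizontal) for all 88 rows by family (vertical), with PS mice as the upper and MCT mice as the lower points of each family; black bars are medians, drawn for 3 or more rows. The inward rectifiers spread to both sides of 0, from −4.44 to 4.38 in PS mice and from −4.55 to 4.04 in MCT mice. Their medians are 0.03 in PS mice and 0.13 in MCT mice. The 2-pore channels have 6 rows above and 8 below 0 in PS mice, and 7 and 7 in MCT mice. In the other families more rows lie below 0 than above.

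Over all 21218 rows, 23.2% were lower and 25.3% higher in heart in both treatments. The counts by family are small, and differences between families were not tested. Of 16 rows of Kv1 to Kv4 pore subunits, 12 were lower in heart in both treatments and 2 higher. The counts were 2 lower and 1 higher of 3 Kcnq rows, 5 and 1 of 8 Kcnh rows, and 7 and 1 of 9 modifier rows. Among accessory subunits 6 of 12 were lower and 3 higher, among calcium- or sodium-activated channels 6 of 11 and 1, and among 2-pore channels 7 of 14 and 2. Of the 15 inward rectifiers, 6 were lower and 6 higher in heart.

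Kcnj5 had the largest excess in heart. It encodes a subunit of the acetylcholine-activated channel through which the vagus nerve slows the heart. Kcnj5 was 8.99, 8.44 and 8.49 in heart PS arrays and 4.23, 4.42 and 4.12 in cerebrum PS arrays, a difference of 4.38 ± 0.16 (SE, adjusted p = 5.05e-07). In MCT mice it was 8.46, 8.53 and 8.89 in heart and 4.51, 4.79 and 4.46 in cerebrum, a difference of 4.04 ± 0.15 (adjusted p = 1.03e-07). Every heart array was above every cerebrum array. Kcnj3, which encodes its partner in that channel, was 9.08, 8.60 and 9.14 in heart and 9.44, 9.53 and 9.22 in cerebrum of PS mice, and 8.84, 9.01 and 9.20 against 9.01, 8.53 and 9.11 in MCT mice. Its difference was −0.46 in PS mice (adjusted p = 0.0443) and 0.13 in MCT mice (adjusted p = 0.508). Kcnj3 thus had no excess in heart in either treatment.

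Both subunits of the slow delayed rectifier of ventricular muscle were higher in heart. The pore gene Kcnq1 was 8.85, 8.27 and 8.58 in heart PS arrays and 4.76, 4.71 and 4.90 in cerebrum PS arrays, and 8.0, 8.19 and 8.50 in heart MCT arrays and 4.68, 4.44 and 4.79 in cerebrum MCT arrays. The differences were 3.78 ± 0.15 in PS mice and 3.59 ± 0.15 in MCT mice. Its accessory subunit Kcne1 was 8.07, 7.88 and 7.07 in heart and 4.59, 4.63 and 4.60 in cerebrum of PS mice, and 6.99, 7.79 and 6.80 against 4.46, 4.16 and 4.36 in MCT mice. Kcne1 differed by 3.07 ± 0.24 and 2.87 ± 0.24, with the heart arrays spread more widely than those of Kcnq1. Kcnh2, the pore of the rapid delayed rectifier, was 1.64 higher in heart in PS mice (adjusted p = 7.12e-05) and 1.14 in MCT mice (adjusted p = 0.000317), and its cerebrum arrays stayed between 7.29 and 7.63.

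Among the other inward rectifiers higher in heart, Kcnj2 and Kcnj12 encode channels of the resting current of heart muscle. Kcnj2 was 2.15 higher in heart in PS mice and 1.46 in MCT mice, and Kcnj12 was 1.08 and 1.06 higher. Kcnj8 and Kcnj11 encode the pores of ATP-sensitive channels, which open when cell energy falls. Kcnj8 was 2.49 and 2.77 higher in heart and Kcnj11 1.05 and 1.48 higher. In PS mice Kcnj11 was 7.86, 7.44 and 7.66 in heart and 6.41, 7.39 and 6.00 in cerebrum (adjusted p = 0.0293), with cerebrum PS 2 near the heart arrays. That call was lost in 4 of 14 alternatives, with adjusted p from 0.000482 to 0.0938. Kcnj14, an inward rectifier known from motor nuclei, was 1.57 and 2.25 higher in heart.

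The acid-sensitive leak channel Kcnk3 was 9.88, 9.72 and 9.81 in heart PS arrays and 7.18, 7.20 and 6.95 in cerebrum PS arrays. In MCT mice it was 9.37, 9.64 and 9.82 in heart and 6.70, 6.79 and 6.54 in cerebrum. Heart exceeded cerebrum by 2.69 ± 0.10 in PS mice and 2.93 ± 0.14 in MCT mice, with no overlap. Kcna5, the pore of the ultrarapid delayed rectifier, was 1.84 higher in heart in PS mice and 0.93 in MCT mice. Its cerebrum PS arrays were at 4.19, 4.19 and 5.20, and its cerebrum MCT arrays at 4.89 to 5.07. Kcnv2, a silent subunit known for its role in photoreceptors, was 1.99 and 2.25 higher in heart. The muscle-type pore Kcna7 (0.70 and 1.00), the Kcnq1 partner Kcne3 (0.51 and 0.68) and the calcium-activated Kcnn4 of blood cells and epithelia (0.51 and 0.57) completed the 15 with the largest excess, and all cerebrum arrays of these 3 were below the cerebrum filter. The heart arrays of Kcna7 (4.38 to 4.69) and Kcne3 (3.87 to 4.42) were below the heart filter of 4.93 as well, so both tissues were near background and the size of these differences is not a measure of an excess.

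The transient outward current of rodent heart is carried by Kcnd2 and Kcnd3 pores with the accessory protein Kcnip2, and these transcripts were not higher in heart as a group. Kcnd2 was 8.42, 8.24 and 9.18 in heart and 9.77, 9.65 and 9.89 in cerebrum of PS mice, a difference of −1.16 (adjusted p = 0.00399), and was −1.37 in MCT mice. Kcnip2 was 9.91, 9.63 and 9.70 against 9.64, 9.55 and 9.34 in PS mice, a difference of 0.24 (adjusted p = 0.116). In MCT mice Kcnip2 was 0.36 higher in heart (adjusted p = 0.0472). The Kcnd3 rows disagreed: in MCT mice transcript cluster 10495083 gave −1.14 (adjusted p = 0.00133) and 10500957 gave −0.03 (adjusted p = 0.86), while in PS mice both were lower in heart, by −1.32 and −0.41.

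Of the accessory subunits lower in heart, Kcnip4, a calcium-binding partner of Kv4 pores, was 3.46, 3.23 and 3.47 in heart PS arrays and 9.72, 9.56 and 9.35 in cerebrum PS arrays. In MCT mice Kcnip4 was 3.87, 3.87 and 3.46 in heart and 9.48, 9.57 and 9.66 in cerebrum. Its differences were −6.16 ± 0.12 and −5.84 ± 0.13 (SE), the widest of the 88 rows, with a heart level below the filter of 4.93. Kcnip3, a relative that also acts as a transcriptional repressor, was −4.14 in PS mice and −4.46 in MCT mice. The 3 beta subunits of Kv1 channels were all lower in heart, Kcnab2 by −5.02 and −4.71, Kcnab3 by −4.63 and −3.76 and Kcnab1 by −3.86 and −4.61 in PS and MCT mice.

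Among pore subunits, Kcnh7, a neuronal relative of Kcnh2, was 3.76, 3.31 and 3.75 in heart PS arrays and 9.76, 9.76 and 9.19 in cerebrum PS arrays. In MCT mice Kcnh7 was 3.25, 3.73 and 3.74 in heart and 9.02, 8.34 and 9.20 in cerebrum. The differences were −5.96 ± 0.19 and −5.28 ± 0.24, so Kcnh2 and Kcnh7 had opposite tissue patterns. The ether-a-go-go pores Kcnh5 (−5.56 in PS mice, −4.72 in MCT mice) and Kcnh1 (−4.66 and −4.58) were also lower in heart. So were the axonal Kv1 pores Kcna1 (−4.40 and −4.89) and Kcna2 (−4.43 and −4.37), Kcnq5 of the muscarine-sensitive current (−4.30 and −4.61) and Kcnc2 of fast-spiking neurons (−4.35 and −4.17). The silent subunit Kcnv1 differed by −5.28 and −4.92, opposite to Kcnv2, and the large-conductance calcium-activated pore Kcnma1 by −5.30 and −4.90.

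Kcnj10 is the inward rectifier with which astrocytes clear potassium. It was 4.48, 4.16 and 4.40 in heart PS arrays and 9.12, 8.17 and 9.07 in cerebrum PS arrays, a difference of −4.44 ± 0.25. In MCT mice it was 4.71, 4.76 and 4.64 in heart and 9.38, 9.43 and 8.94 in cerebrum, a difference of −4.55 ± 0.14. Cerebrum PS 2 was the lowest of the cerebrum arrays, and no heart array came near it.

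**Figure D2:**
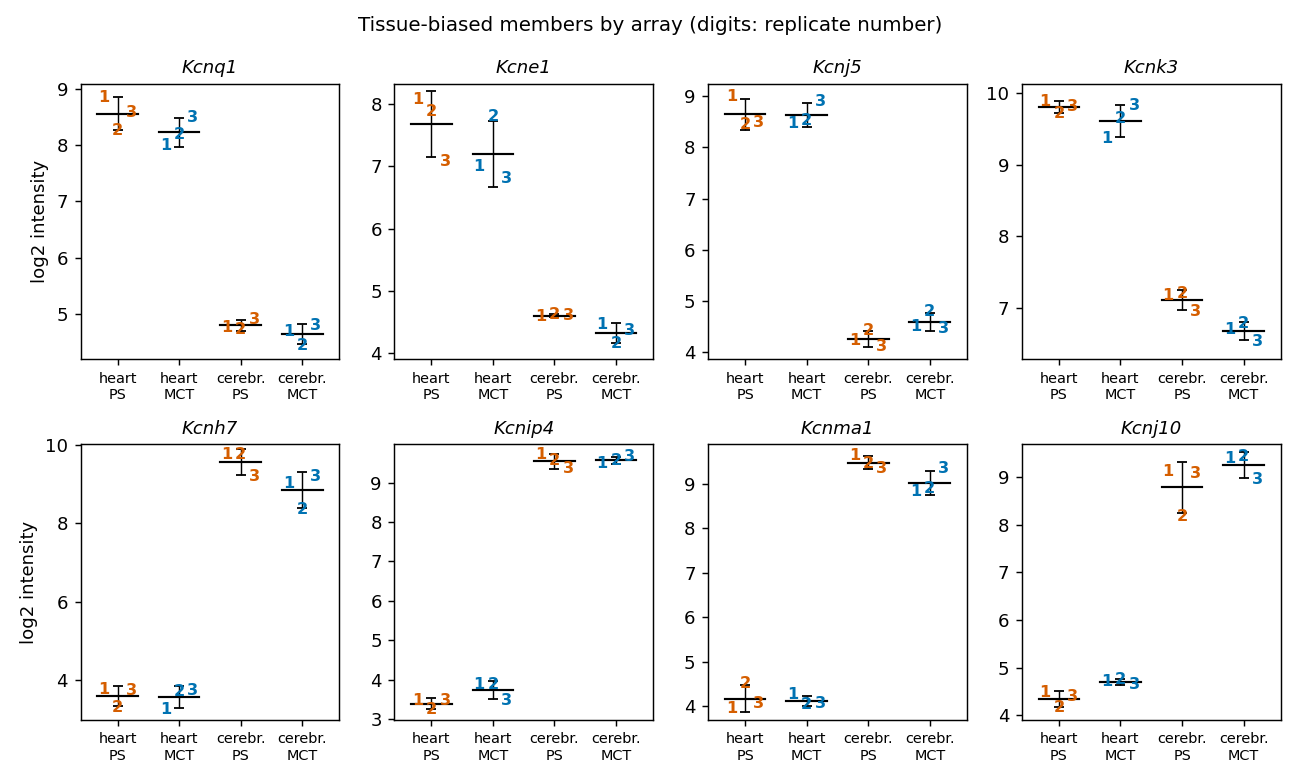
Log2 intensity (vertical, a scale for each panel that does not start at 0) of 8 members in the 4 groups, with digits for the replicate number, bars for the mean and whiskers for the SD. In the upper row every heart array is above every cerebrum array, and in the lower row every one is below.

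Of the 88 rows, 10 passed in neither treatment. They were Kcnk5, Kcnk7, Kcnk15, Kcnk18, Kcnn1, Kcnu1, Kcne2, Kcnj1, Kcnj15 and 1 of the Kcnh8 rows, and all but Kcnk15 and Kcnn1 were below the filter in both tissues. Kcnn1, a small-conductance calcium-activated channel, was 5.34, 5.63 and 5.76 in heart PS arrays and 5.68, 5.69 and 5.72 in cerebrum PS arrays. A probe set near background gives no measure of a tissue difference, so the low rows are not shown to be equal.

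The promoters of Kcnj5 and Kcnh7, the widest pore-gene differences in each direction, are shown as the 250 bases before the RefSeq start (GRCm38.p6, 5′ to 3′). Capitals mark the GC box, GGGCGG on either strand, the element bound by Sp1. Kcnj5 is at chr9:32344345-32344594 on the minus strand and Kcnh7 at chr2:63184288-63184537 on the minus strand.
Kcnj5: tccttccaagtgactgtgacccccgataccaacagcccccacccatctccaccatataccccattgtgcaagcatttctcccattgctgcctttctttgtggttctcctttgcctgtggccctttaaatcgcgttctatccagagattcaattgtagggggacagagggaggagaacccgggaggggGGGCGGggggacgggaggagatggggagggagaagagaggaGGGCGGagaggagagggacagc
Kcnh7: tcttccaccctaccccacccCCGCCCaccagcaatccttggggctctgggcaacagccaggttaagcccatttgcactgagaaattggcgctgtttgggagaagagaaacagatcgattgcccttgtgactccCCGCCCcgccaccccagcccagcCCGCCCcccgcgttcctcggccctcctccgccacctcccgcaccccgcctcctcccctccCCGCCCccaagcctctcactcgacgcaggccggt
The Kcnj5 window holds 2 GC boxes and 7 CpG, and the Kcnh7 window 4 GC boxes and 16 CpG. A window was listed for 66 of the 86 genes, and 33 of them (50.0%) hold a GC box, beside 32.9% of 27025 genes in the table. Among genes higher in heart in both treatments 4 of 10 windows hold one (40%), and among those lower 20 of 39 (51.3%). The TATA box, TATAAA on either strand, occurs in 2 of the 66 windows (3.03%) and in 13.0% of the table. The cAMP response element TGACGTCA, which reads the same on both strands, is in 0 of the 66 and in 1.62% of the table. None of the 3 motifs contains another, and a match is a description of letters only.

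For PS against MCT in cerebrum, 2 potassium channel transcripts changed and both were lower with PS: Kcnab1 and Kcnj2. Rows with a mean at or above 5.04 were tested, which held 65 of the 88. None of the 65 was higher and 2 were lower at the threshold (3.08%), while 5.76% of all 12733 rows tested passed, 1.83% higher and 3.93% lower. At an unadjusted p under 0.05 there were 30 of 65, beside 29% of all rows.

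Kcnab1 encodes a beta subunit that speeds the inactivation of Kv1 channels. Its transcript cluster, 10492402, was 8.46, 8.47 and 8.84 in PS arrays and 9.57, 9.58 and 9.48 in MCT arrays. Each PS array was below each MCT array, with PS 3 closest. The difference was −0.95 ± 0.12 (SE, adjusted p = 0.0159), and it ran from −1.08 to −0.89 over 14 alternatives, with adjusted p from 0.00112 to 0.11. The call was lost in 4 of them, without PS 1, MCT 1 or MCT 2 (adjusted p = 0.0685, 0.11 and 0.0836) and with a replicate block (0.0919). PS 2, which had the sex pattern of the MCT arrays, was at 8.47.

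Kcnj2 encodes an inward rectifier of muscle and of striatal and other neurons. Its transcript cluster, 10382321, was 6.34, 6.27 and 6.49 in PS arrays and 6.73, 6.83 and 6.83 in MCT arrays, again with no overlap and PS 3 closest. The difference was −0.43 ± 0.09 (SE, adjusted p = 0.041). It passed in 6 of 14 alternatives, with adjusted p from 0.0114 to 0.171. Leaving out 1 array kept the call only without PS 3 (adjusted p = 0.0206).

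The promoter windows of the transcripts that fell are shown in the same form. Kcnab1 is at chr3:64948962-64949211 on the plus strand, the first of 3 start sites listed for it, and Kcnj2 at chr11:111065914-111066163 on the plus strand.
Kcnab1: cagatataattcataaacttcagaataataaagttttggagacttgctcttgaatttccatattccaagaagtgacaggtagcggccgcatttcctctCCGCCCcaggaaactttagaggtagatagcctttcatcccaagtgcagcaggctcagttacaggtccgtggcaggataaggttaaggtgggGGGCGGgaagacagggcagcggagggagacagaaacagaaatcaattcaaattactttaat
Kcnj2: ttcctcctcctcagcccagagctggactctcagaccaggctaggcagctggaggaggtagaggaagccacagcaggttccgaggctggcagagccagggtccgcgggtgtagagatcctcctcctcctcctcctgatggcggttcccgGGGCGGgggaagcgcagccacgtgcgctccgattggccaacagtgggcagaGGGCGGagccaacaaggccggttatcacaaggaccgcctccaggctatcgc
Each holds 2 GC boxes and no TATA box, with 6 CpG for Kcnab1 and 14 for Kcnj2.

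Most other channel rows lay above 0 without passing. Of the 65, 47 were above 0 and 18 below, with a median of 0.18, beside a median of −0.03 over all rows tested, of which 54.7% were below 0. The PS and MCT arrays did not overlap for 15 rows that were higher with PS (12.4% of all rows) and 7 that were lower (20.4% of all rows). The median was 0.37 for 6 tested Kcnh rows, 0.33 for 10 2-pore rows, 0.28 for 8 modifier rows and 0.19 for 13 Kv1 to Kv4 rows. It was 0.14 for 8 calcium- or sodium-activated rows, 0.11 for 10 inward rectifiers and −0.01 for 8 accessory subunits, and the 2 Kcnq rows were at 0.42 and 0.16.

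**Figure D3:**
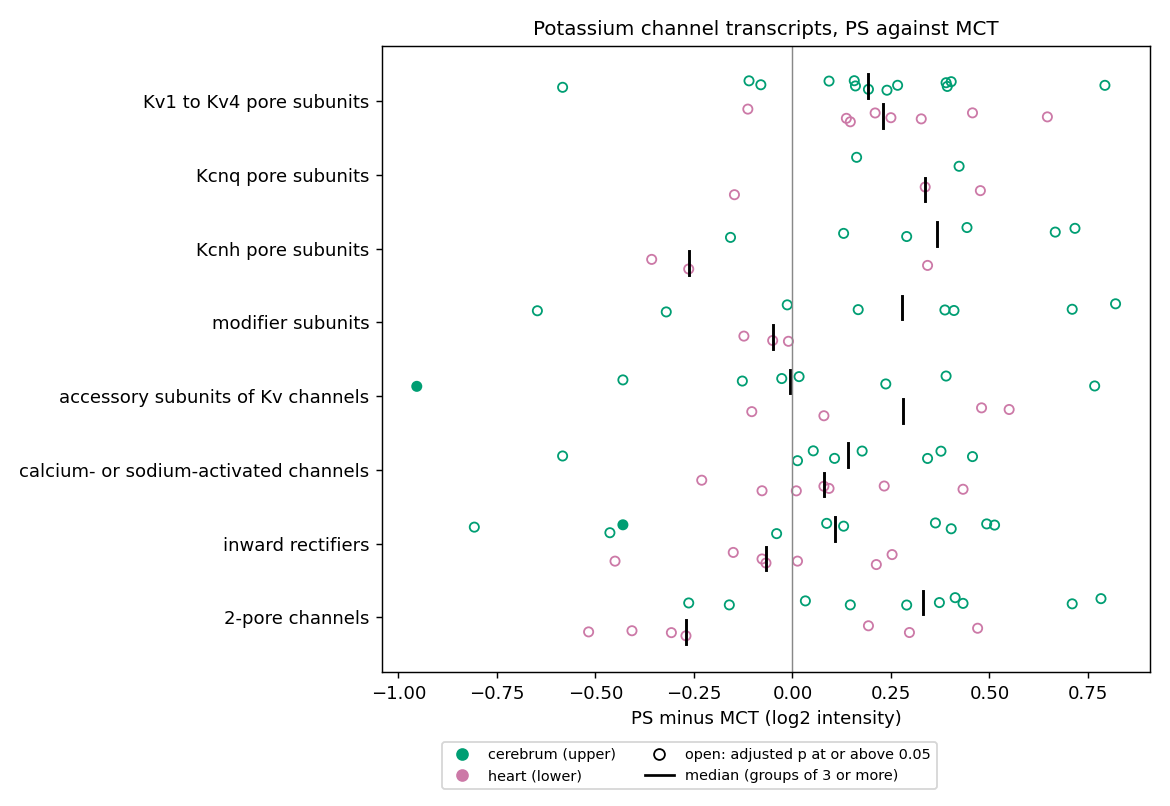
PS minus MCT on the log2 scale (horizontal) for the rows tested, 65 in cerebrum (upper points) and 42 in heart (lower points), by family (vertical); filled points passed an adjusted p of 0.05 and bars are medians for 3 or more rows. Kcnab1 at −0.95 and Kcnj2 at −0.43, both in cerebrum, are the filled points.

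The rows that came closest without passing were the leak channel Kcnk3 and the delayed rectifier pore Kcnb2. Kcnk3 was 7.18, 7.20 and 6.95 in PS arrays and 6.70, 6.79 and 6.54 in MCT arrays, a difference of 0.43 ± 0.11 (adjusted p = 0.0536). Kcnb2 was 7.50, 7.71 and 7.55 in PS arrays and 7.19, 6.33 and 6.86 in MCT arrays, a difference of 0.79 ± 0.20 (adjusted p = 0.0575). Neither overlapped, and MCT 2 was the lowest array for Kcnb2. Of G protein-gated rectifiers of neurons, Kcnj6 differed by 0.49 (adjusted p = 0.0602) and Kcnj3 by 0.51 (adjusted p = 0.0924). Differences above 0 were also seen for the 2-pore channels Kcnk12 (0.71, adjusted p = 0.0628) and Kcnk9 (0.41, adjusted p = 0.0927), Kcnh3 (0.44, adjusted p = 0.0929) and Kcnc2 (0.40, adjusted p = 0.0932). Below 0 were Kcnn3, a small-conductance calcium-activated channel (−0.58, adjusted p = 0.0707), and the modifier Kcng3 (−0.65, adjusted p = 0.0764).

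The 3 PS arrays were not alike. Measured from the MCT mean, the 65 rows had median deviations of 0.23, 0.22 and 0.04 in PS 1, 2 and 3, and of 0.02, −0.09 and 0.08 in MCT 1, 2 and 3. Over all rows tested it lay between −0.05 and 0.02 in every array. Kcns1, a modifier of Kv2 channels, was 6.96, 7.49 and 5.63 in PS arrays and 5.84, 5.44 and 6.34 in MCT arrays, and Kcnab3 was 9.50, 9.33 and 8.16 in PS arrays and 8.37, 7.97 and 8.35 in MCT arrays. In both, PS 1 and PS 2 were above all MCT arrays and PS 3 was among them. Kcna4, an A-type pore, was 6.75, 6.67 and 7.55 in PS arrays and 7.55, 7.54 and 7.63 in MCT arrays, with PS 3 level with them again. Without PS 3, 20 of the 65 rows passed, 16 higher and 4 lower, beside 12.2% of all rows. The 4 lower were Kcnab1 (−1.08), Kcna4 (−0.86), Kcnn3 (−0.77) and Kcnj2 (−0.49), and the largest higher were Kcns1 (1.35), Kcnab3 (1.19 with adjusted p = 0.00563) and Kcnk4 (1.07), a mechanosensitive leak channel. Without PS 1, MCT 1 or MCT 2, 0 of the 65 passed, and of all rows 0, 0 and 2 did, so these fits say nothing of the channel rows in particular. Array weights, which count each array by its own spread, gave 24, beside 26.8% of all rows.

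**Figure D4:**
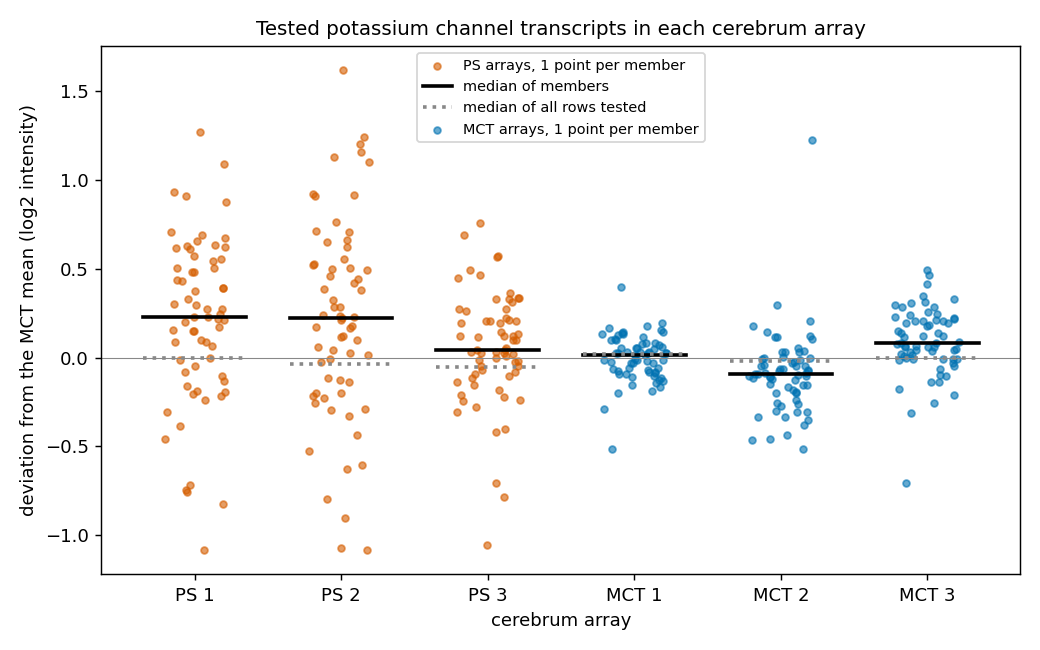
Deviation of each of the 65 tested rows from its cerebrum MCT mean (vertical, log2 scale) in each cerebrum array (horizontal); points are rows, solid bars their median and dotted bars the median of all 12733 rows tested. PS 1 and PS 2 have medians of 0.23 and 0.22, and PS 3 lies at 0.04, close to the MCT arrays.

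Genes of the striatum also set PS 1 and PS 2 apart from PS 3. The mean of the 10 measured genes of the list was 6.75, 6.85 and 8.76 in PS 1, 2 and 3 and 9.43, 9.60 and 9.44 in the MCT arrays. All 10 were below 0, with a median difference of −1.87, and 4 of them passed. Gad2, of inhibitory neurons, was the 1 of 8 neuronal genes that passed (−0.68, adjusted p = 0.0383). It was at 9.02, 8.85 and 9.38 in PS arrays and 9.75, 9.79 and 9.74 in MCT arrays. Gad1, also of inhibitory neurons, differed by −0.04 (adjusted p = 0.853 in limma). Of the 8 neuronal genes 4 were above 0 and 4 below, with a median of 0.03. All 5 oligodendrocyte genes measured were below 0 with PS (2 passed, median −0.51). Their mean ran from 8.14 to 8.50 in PS arrays and from 8.65 to 9.33 in MCT arrays. The 6 endothelial genes were above 0 (0 passed), with means of 6.50 to 7.02 in PS arrays and 6.21 to 6.67 in MCT arrays. The part of these markers, and of sex pattern, in the differences of Kcnab1, Kcnj2 and the other channel rows was not tested.

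Kcnj13, an inward rectifier of choroid plexus and retinal pigment epithelium, stood high in 1 array. It was 5.98, 6.13 and 5.68 in PS arrays and 6.22, 7.96 and 6.03 in MCT arrays (difference −0.81, adjusted p = 0.286). Ttr, the transthyretin made by choroid plexus, was 6.70, 4.34 and 6.60 in PS arrays and 10.82, 11.54 and 5.98 in MCT arrays, highest in MCT 2 as well. The 8 thalamus rows averaged 6.22 to 6.36 in PS arrays and 6.25, 6.95 and 6.34 in MCT arrays, highest in MCT 2 too. The mean of the 6 measured choroid plexus genes was 4.08 to 4.77 in PS arrays and 4.83 to 6.68 in MCT arrays, and the part of these markers in the Kcnj13 values was not tested. Kcne2, the other channel gene known for choroid plexus, was below the filter, at 3.30, 3.38 and 3.48 in PS arrays and 3.62, 4.38 and 3.52 in MCT arrays, and again MCT 2 was highest.

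**Figure D5:**
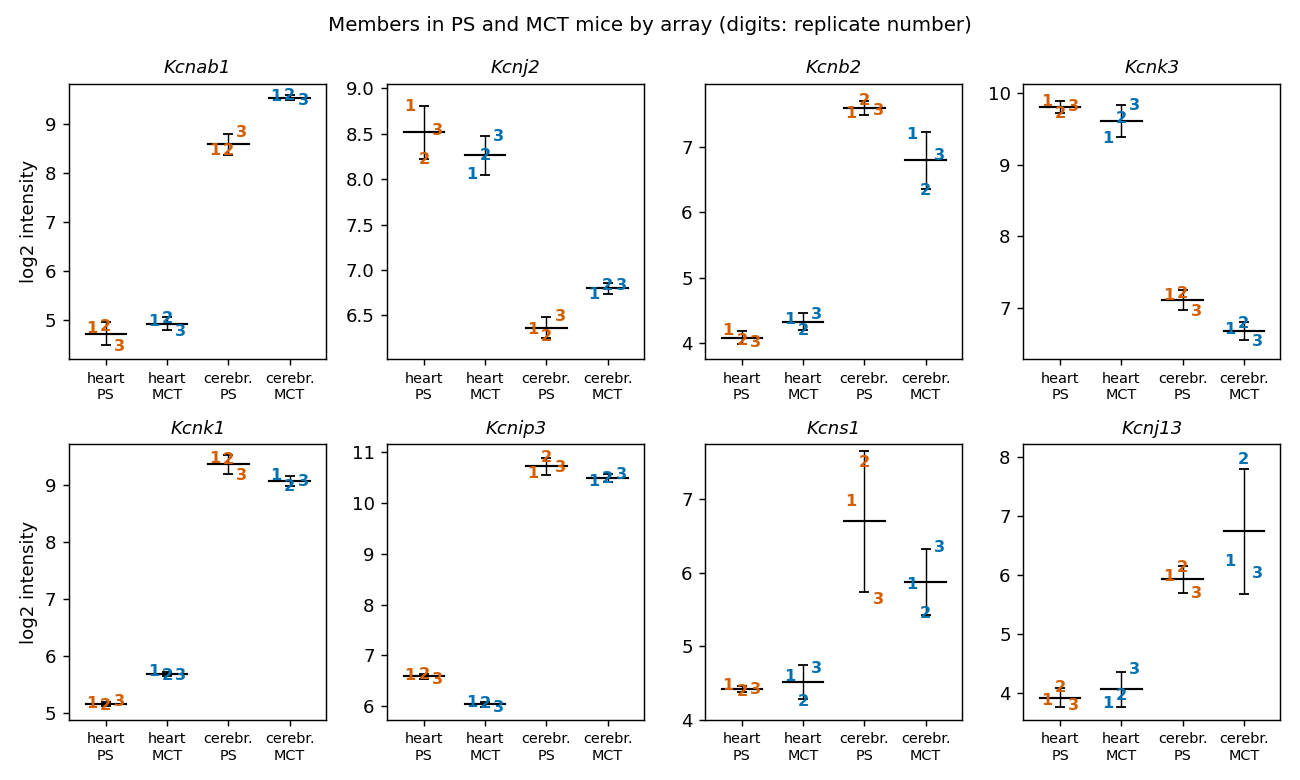
Log2 intensity (vertical, a scale for each panel that does not start at 0) of 8 members in the 4 groups, with digits for the replicate number, bars for the mean and whiskers for the SD. Cerebrum PS arrays of Kcnab1 and Kcnj2 lie below their MCT arrays, heart PS arrays of Kcnk1 lie below theirs, and MCT 2 stands at 7.96 for Kcnj13 in cerebrum.

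For PS against MCT in heart, none of the potassium channel transcripts passed the threshold. Of the 88 rows 42 had a mean at or above 4.93 and were tested in limma, and the lowest adjusted p was 0.101. At an unadjusted p under 0.05 there were 6 of 42, beside 23.7% of all 12736 rows tested, of which 0.33% passed after adjustment. The median difference was 0.08, beside 0.06 over all rows, with 24 rows above 0 and 18 below. The arrays did not overlap for 4 rows higher with PS (17.2% of all rows) and 3 lower (11.2% of all rows).

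Kcnip3 had the lowest p, at 6.61, 6.62 and 6.53 in PS arrays and 6.08, 6.05 and 5.98 in MCT arrays, a difference of 0.55 ± 0.11 (adjusted p = 0.101). Kcna5 was 6.49, 6.21 and 6.39 in PS arrays and 5.97, 5.76 and 5.99 in MCT arrays, a difference of 0.46 ± 0.13 (adjusted p = 0.134). The groups of both were apart in every array. Kcnmb1, the smooth muscle beta subunit of the large-conductance channel, differed by 0.43 (adjusted p = 0.184) and the Kv3 pore Kcnc4 by 0.25 (adjusted p = 0.243). Below 0 without overlap were the 2-pore channels Kcnk1 (−0.52, adjusted p = 0.112), Kcnk2 (−0.41, adjusted p = 0.163) and Kcnk15 (−0.27, adjusted p = 0.288). Kcnk2 is the stretch-activated leak channel, and it was 4.60, 5.01 and 4.95 in PS arrays and 5.16, 5.27 and 5.35 in MCT arrays.

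The 7 repolarizing genes of heart that follow did not pass, and neither did Kcna5 above. The difference was 0.34 ± 0.19 for Kcnq1, 0.48 ± 0.32 for Kcne1, 0.34 ± 0.20 for Kcnh2 and 0.25 ± 0.18 for Kcnj2. It was 0.14 ± 0.32 for Kcnd2, −0.10 ± 0.16 for Kcnip2 and 0.01 ± 0.19 for Kcnj5 (SE, adjusted p of 0.3 or more in limma for all 7). Without MCT 3, 6 rows passed, beside 26.8% of all rows. With array weights 17 passed, beside 54.9% of all rows. The atrial light chain Myl7 was 4.16, 4.17 and 6.80 in PS arrays and 4.37, 5.08 and 8.53 in MCT arrays, high in number 3 of both groups. The mean of the 6 atrium genes was 6.52, 6.76 and 7.32 in PS arrays and 6.55, 6.82 and 7.64 in MCT arrays. Not every gene of that list went the same way. Nppa was lowest in number 3 of both groups, at 10.71 with PS and 10.44 with MCT. Without either number 3, an alternative chosen after the data were seen, 1 row passed, beside 9.23% of all rows. The 6 endothelial genes averaged 9.11 to 9.36 in PS arrays and 8.30 to 8.85 in MCT arrays, and smooth muscle and pericyte genes 8.22 to 8.66 and 7.39 to 7.97. Their part in Kcnmb1 or other rows was not tested.

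Kcnk1 was the 1 channel gene whose PS difference was itself different between tissues. It encodes a weakly conducting leak channel and is transcript cluster 10576581. In heart it was 5.17, 5.14 and 5.21 in PS arrays and 5.73, 5.67 and 5.67 in MCT arrays. In cerebrum it was 9.46, 9.45 and 9.17 in PS arrays and 9.17, 8.98 and 9.06 in MCT arrays. The heart PS arrays were all below the MCT arrays, whereas in cerebrum PS 3 and MCT 1 were equal and the other PS arrays were above. The PS difference in heart minus that in cerebrum was −0.81 ± 0.14 (SE, adjusted p = 0.0228), with −0.52 in heart (adjusted p = 0.112) and 0.29 in cerebrum (adjusted p = 0.124). Kcnk1 was 1 of 62 rows tested (1.61%), beside 1.52% of all 12731 rows. The value ran from −0.93 to −0.76 over 19 alternatives, with adjusted p from 0.00585 to 0.0731. The call was lost in 5 of them, without cerebrum PS 1 (0.0731), PS 2 (0.0642), MCT 1 (0.0579) or MCT 2 (0.072) or heart PS 2 (0.0569). In heart the sex pattern cannot be told apart from PS for this value, and in cerebrum its part was not tested.

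The Kcnk1 window, at chr8:125994852-125995101 on the plus strand of GRCm38.p6, is shown beside those above and holds none of the 3 motifs. That is not particular to Kcnk1, as only 33 of the 66 channel windows hold a GC box, 2 a TATA box and 0 the cAMP response element.
Kcnk1: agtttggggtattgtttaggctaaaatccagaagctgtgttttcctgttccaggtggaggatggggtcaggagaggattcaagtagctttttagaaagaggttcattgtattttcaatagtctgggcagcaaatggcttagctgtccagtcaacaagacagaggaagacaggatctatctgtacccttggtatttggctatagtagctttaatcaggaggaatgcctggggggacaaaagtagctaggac
It has no capitals, 0 CpG and a GC content of 44.4%, beside a median of 8 CpG and 58.8% over the 66 channel windows. The windows of Kcna10 and Kcnk16 have 0 CpG as well.

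Of the 33 rows tested in both tissues, 15 had PS differences of 1 sign, 14 were below 0 in heart and above 0 in cerebrum, and 4 the other way. Kcnj2 was 0.25 in heart and −0.43 in cerebrum, and Kcnab1 lay below the heart filter, at 4.84, 4.88 and 4.46 in PS arrays and 4.98, 5.03 and 4.78 in MCT arrays.

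Partners of these channels with other symbols were counted from a list of 29 genes, of which 27 were measured in 31 rows. They include the pacemaker Hcn channels, the Dpp subunits of Kv4 channels, the sulfonylurea receptors of ATP-sensitive channels and scaffold proteins. In PS mice 6 rows were higher and 19 lower in heart, and in MCT mice 7 were higher and 19 lower. Abcc9, the receptor that joins Kcnj8 or Kcnj11, was 4.58 higher in heart in PS mice and 4.73 in MCT mice, and 1 of the Dpp10 rows was −6.00 and −5.57. The other Dpp10 row was 0.05 in PS mice and 0.34 in MCT mice (limma adjusted p = 0.767 and 0.0138). It was at 3.40 to 3.96 in all arrays, below the filter in both tissues. Of all rows, 30.6% were higher and 25.9% lower in PS mice, and 34.4% and 27.8% in MCT mice. For PS in cerebrum 23 rows were tested, 1 was higher and 0 lower, with a median of 0.01, beside 5.76% of all rows called. The 1 was a row of Nos1ap, an adaptor of neuronal nitric oxide synthase, at 8.07, 7.74 and 7.70 in PS arrays and 7.17, 6.99 and 7.40 in MCT arrays (0.65, adjusted p = 0.0443). The other Nos1ap row, at 3.68 to 4.11 in cerebrum, was below the filter and was not tested. In heart 18 were tested and 0 passed, beside 0.33% of all rows, and for the difference between tissues 0 of 23 passed in limma, beside 1.52%.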

How the data were processed

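RNA from heart and cerebrum was hybridised, biotin-labelled, to whole-transcript arrays, as the labels' protocols state. The submitters' processing notes name Affymetrix Expression Console, and the authors deposited 1 log2 value per transcript cluster and array. The scale was read from the values, which run from 1.9 to 13.11. How background and probe summaries were handled, and on which build, is not given in the sources used here. Array medians were 4.89 to 5, and no further normalization was applied, so a shift common to all rows would not be seen. Correlations within a group were 0.983 to 0.997 over rows, and no arrays were near copies.

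The supplied probe annotation listed 23099 rows, 21218 with 1 symbol and 1881 with several, and 12457 rows had no entry. Gene identifiers matched the RefSeq table for 21185, and 0 symbols changed. limma 3.58.1 in R 4.3.3 (lmFit, eBayes) was used, two-sided, with Benjamini-Hochberg adjustment over all rows tested and a threshold of 0.05. Treatment comparisons and the difference between tissues tested rows at or above the 40th percentile of the mean over the arrays fitted (5.04 in cerebrum, 4.93 in heart, 5.23 for all arrays). Heart against cerebrum used no filter, so that no row enters only through the tissue where it is high. Fits were tested on simulated data. The labels call the arrays biological replicates.

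The members, families and marker lists were chosen with earlier results of these data known. Named were all members past the threshold in a treatment comparison or in the difference between tissues, others without overlap of groups by lowest p up to 12, and the 15 largest in each direction between tissues, past the threshold in both treatments. Kcnj3, Kcnd2, Kcnd3, Kcnip2, Kcnn1, Kcns1, Kcnab3, Kcna4, Kcnk4, Kcnj13 and Kcne2 in their comparisons are examples chosen after their values were seen, as are Ttr, Myl7, Gad2, Rbfox3, Abcc9, Dpp10 and Nos1ap. Thalamus, astrocyte, microglia, heart muscle, atrium and conduction lists were also counted in the treatment comparisons, and no gene of theirs passed. In the difference between tissues 1 gene each of the neuron (Rbfox3, −0.92, adjusted p = 0.0437), striatum, oligodendrocyte and smooth muscle lists passed.

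Deviations of same-numbered heart and cerebrum arrays had correlations of 0.114, 0.102 and 0.287 in MCT mice over 12731 rows. Different numbers there gave −0.248 to 0.191, the highest for heart 1 with cerebrum 2, so the data set apart number 3 only. In PS mice the same-numbered correlations were 0.115, 0.098 and 0.054, beside −0.109 to 0.026 for different numbers. Number 2 of the PS arrays joins tissues of opposite sex pattern, so the numbers do not pair all PS arrays. A block by number mixes mice there. Promoters were taken from the RefSeq table (GRCm38.p6), first listed start of each gene. Alternatives were quantile normalization, median centring, another filter, an intensity trend, array weights, a replicate block, rows with several symbols or none kept, 1 fit over all groups, and leaving out each array.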

Additional observations from a re-analysis of the deposited data

Results flagged for a closer look

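The PS difference of Kcnk1, a 2-pore leak channel, differed between tissues in a test of that difference, which is why it is listed. Heart minus cerebrum was −0.81 ± 0.14 on the log2 scale (SE, limma adjusted p = 0.0228), with −0.52 in heart and 0.29 in cerebrum. Neither tissue passed alone. Kcnk1 was 1 of 62 channel rows tested (1.61%), beside 1.52% of all rows, and the call was lost in 5 of 19 alternatives. The heart levels, 5.14 to 5.21 with PS and 5.67 to 5.73 with MCT, lie close to the heart filter of 4.93. All heart PS arrays and no heart MCT array have the female pattern of Xist, so the treatments cannot be told apart from it there. Groups of 3 arrays are too small for a test of single outlying arrays.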

How the results depend on the processing

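The tissue differences changed least. With the filter on low values, 59 of 61 rows tested passed in PS mice (75.9% of all rows) and 57 of 63 in MCT mice (75.5%). That filter uses the mean over both tissues, so a row can enter only through the tissue where it is high. These 2 shares are therefore no support for the tissue differences. The other alternatives tested all 88 rows. They gave 70 to 75 in PS mice (43.6% to 59.2% of all rows) and 67 to 77 in MCT mice (48.9% to 73.4%). Among the member differences picked by the naming rule above, none changed sign in any alternative. The signs of other differences given in the text were not followed through the alternatives. The counts for PS in cerebrum depended on the setting, with 2 rows as reported (5.76% of all rows), 24 with array weights (26.8%), 0 with a replicate block (0 of all rows), 1 with rows of several or no symbols kept (1.26%), and 0 to 20 when an array was left out. Those were 20 without PS 3 (12.2%), 1 without PS 2 (1.14%), and 0 without PS 1, MCT 1 or MCT 2, where 0, 0 and 2 of all rows passed. In heart 0 passed as reported (0.33% of all rows), 17 of 42 with array weights (54.9%), 3 of 42 in 1 fit over all 4 groups (13.5%), 1 without either number 3 (9.23%) and 0 to 6 when an array was left out (6 without MCT 3, 26.8%). For the difference between tissues 1 passed as reported (1.52% of all rows), 2 with median centring (2.31%), 2 with a replicate block (1.12%) and 0 to 6 when an array was left out. Those were 6 without cerebrum PS 3 (2.86%), 5 without heart MCT 3 (12.8%) and 0 without cerebrum PS 1, PS 2, MCT 1 or MCT 2 or heart PS 2, where 3 to 58 of all rows passed. Calls over all rows thus moved with most of these settings too. The cause was not tested. When an array is left out, fewer samples stand behind each call. Same-numbered PS and MCT arrays did not deviate together throughout, with correlations of 0.113, −0.15 and −0.263 in cerebrum and 0.032, 0.086 and 0.122 in heart, so a call lost under the block there is not read as a weaker effect. For heart against cerebrum in MCT mice, where the data set apart number 3 only, the block gave 73 rows in place of 72. The block changed no call of a row picked by the naming rule in that comparison. Rows near background in 1 tissue have differences of uncertain size.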
